A study of Caenorhabditis elegans with 4 samples.

Results

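The sqv genes of Caenorhabditis elegans encode the enzymes and the transporter that build glycosaminoglycans, the long sugar chains of proteoglycans. Members were the probes whose annotated gene symbol is sqv- followed by a number. Of the 8 names from sqv-1 to sqv-8, 6 genes had such a probe (sqv-1, sqv-3, sqv-4, sqv-5, sqv-7 and sqv-8), carried by 7 of the 21632 probes and counted among 14943 named genes. No probe bore the names sqv-2 or sqv-6, and these genes were not analysed here.

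RNA of wild-type animals at L3, the third larval stage, was hybridised to 4 arrays with 2 channels each, 1 numbered L3 preparation per array, and channel 1 of every array held RNA of a mixed wild-type reference. No mutant, treatment or second stage is labelled, and the strain, the culture of the animals and what the reference was mixed from are not stated in the labels. Nothing in the labels says whether the 4 preparations were separate cultures, so the p-values measure only the spread between preparations, which may be technical. Each value is a log2 ratio, likely L3 over reference, because the descriptions name L3 first and the reference is channel 1. The dyes are not labelled, so no label settles this direction. Read this way, all 10 tested genes of oocytes, embryos and adults were lower in L3 (means from -6.32 to -1.42). By the limma test used below, 10.8% of all genes and probes tested were lower. Read the other way, the 10 genes would be higher in L3 larvae than in the mixed reference. They were listed with earlier results of these data known. A negative value means less transcript in L3 than in the reference, and in RNA of whole animals fewer cells of a type cannot be told apart from less RNA per cell.

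Glycosaminoglycan chains are attached to a core protein through a short linker of xylose, galactose, galactose and glucuronic acid. SQV-4 makes UDP-glucuronic acid from UDP-glucose, SQV-1 converts UDP-glucuronic acid to UDP-xylose, and SQV-7 carries nucleotide sugars into the Golgi lumen. SQV-3 adds the inner galactose of the linker, SQV-8 adds its glucuronic acid, and SQV-5 is the chondroitin synthase that extends the chain. In C. elegans the genes are known from mutants with a squashed vulva, in which the vulval lumen fails to expand, and from embryos of mutant mothers that fail in cytokinesis and eggshell function.

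Most of the sqv genes measured lay below the reference in L3, by modest amounts. Transcripts of sqv-1, sqv-8, sqv-5 and sqv-7 were lower in L3, between 1.56-fold and 2.04-fold, and no member was higher. sqv-3 and sqv-4 did not pass the test. Thus 4 of 6 members were called lower (limma, Benjamini-Hochberg adjusted p under 0.05 over all genes), where 10.8% of all 19928 genes and probes tested were called lower and 8.34% higher. Below 0 on all 4 arrays were 5 of the 6 members, as were 23.7% of the genes and probes with 4 values. The median of the 6 means was -0.64 on the log2 scale, beside 0.03 for the 14921 named genes tested.

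Among the genes of nucleotide sugar supply, sqv-1 had log2 ratios of -0.75, -1.09, -1.29 and -0.98 in L3 preparations 1 to 4. All 4 arrays were low, the lowest being preparation 3. The mean was -1.03 ± 0.23 (SD, n = 4), 2.04-fold lower in L3, with a 95% interval from -1.41 to -0.65 and limma adjusted p = 0.00776. This gene, whose enzyme supplies the UDP-xylose that starts every linker, had the lowest mean of the 6, and 7.39% of the named genes lay lower. Its call was kept with any 1 preparation left out (limma adjusted p from 0.0234 to 0.0396).

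sqv-7, the Golgi transporter gene, had log2 ratios of -0.62, -0.85, -0.76 and -0.33. It was low on all 4 arrays and closest to 0 in preparation 4. Its mean was -0.64 ± 0.23 (SD, n = 4), 1.56-fold lower in L3, with a 95% interval from -1.02 to -0.26 and limma adjusted p = 0.0355. The call was lost with any 1 preparation left out (adjusted p from 0.0539 to 0.124).

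sqv-4, the UDP-glucose dehydrogenase gene, stood apart by its spread. Its log2 ratios were -0.47, -2.12, 0.55 and -0.00 in preparations 1 to 4. Preparation 2 was far below the reference, preparation 3 above it, and preparation 4 at it, so its single probe did not repeat between preparations. The mean of -0.51 ± 1.15 (SD, n = 4) had a 95% interval from -1.51 to 0.49 that spans 0 (limma adjusted p = 0.413), and without preparation 2 the mean was 0.02. The SD of the other 5 members was between 0.20 and 0.29. No direction can be given for sqv-4 from these arrays.

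Of the linker genes, sqv-8 had log2 ratios of -0.71, -1.02, -1.26 and -0.68. All 4 arrays were low, and preparation 3 was lowest, as it was for sqv-1. The mean was -0.92 ± 0.27 (SD, n = 4), 1.89-fold lower in L3, with a 95% interval from -1.32 to -0.52 and limma adjusted p = 0.0133. Leaving out preparation 3 took the adjusted p to 0.0584, and the call was kept without any other. sqv-3, the galactosyltransferase gene, had log2 ratios of -0.37, -0.69, -0.52 and -0.21, low on all 4 arrays by less. Its mean of -0.45 ± 0.20 (SD, n = 4) did not pass (limma adjusted p = 0.0903), with a 95% interval from -0.82 to -0.08. It is the only member here with several probes, and those lay at -0.41 ± 0.19 and -0.49 ± 0.35. On the single arrays they parted most in preparation 2, at -0.41 and -0.98, and in preparation 1, at -0.56 and -0.18.

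sqv-5, the chondroitin synthase gene, had log2 ratios of -0.80, -0.87, -0.69 and -0.22. Preparations 1 to 3 lay close together and preparation 4 nearer to 0. The mean was -0.64 ± 0.29 (SD, n = 4), 1.56-fold lower in L3, with a 95% interval from -1.05 to -0.24 and limma adjusted p = 0.0437. With preparation 1, 2 or 3 left out it was not called (adjusted p = 0.153, 0.110 and 0.132), and with preparation 4 left out it was (0.0467).

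**Figure D1:**
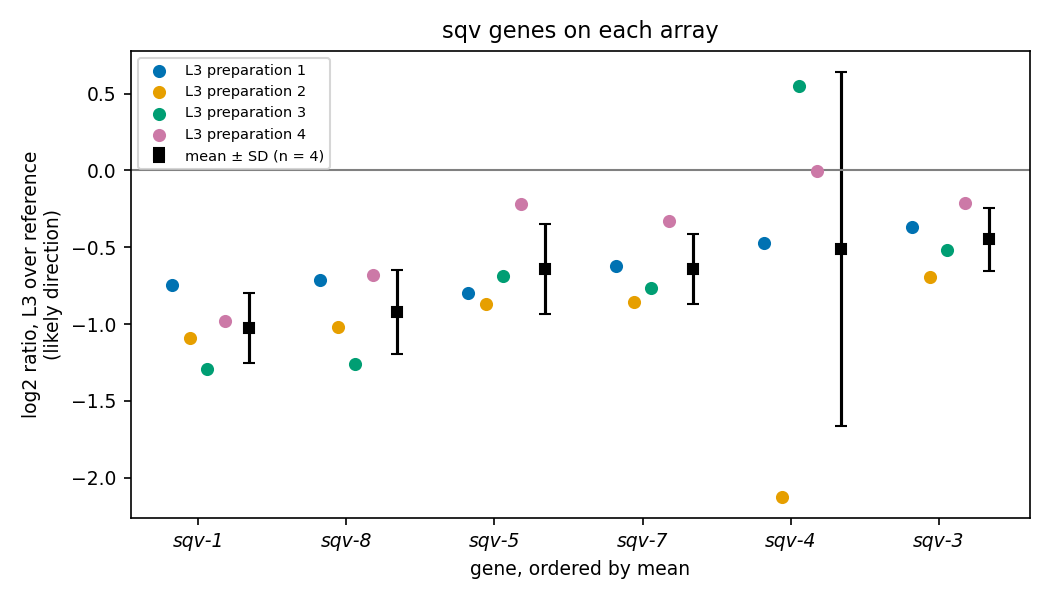
Log2 ratio (vertical axis, likely L3 over reference) of the 6 measured sqv genes on each array, with 1 coloured point per L3 preparation and black squares for the mean ± SD (n = 4). sqv-1, sqv-8, sqv-5, sqv-7 and sqv-3 lie below 0 on every array, while sqv-4 ranges from -2.12 to 0.55.

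**Figure D2:**
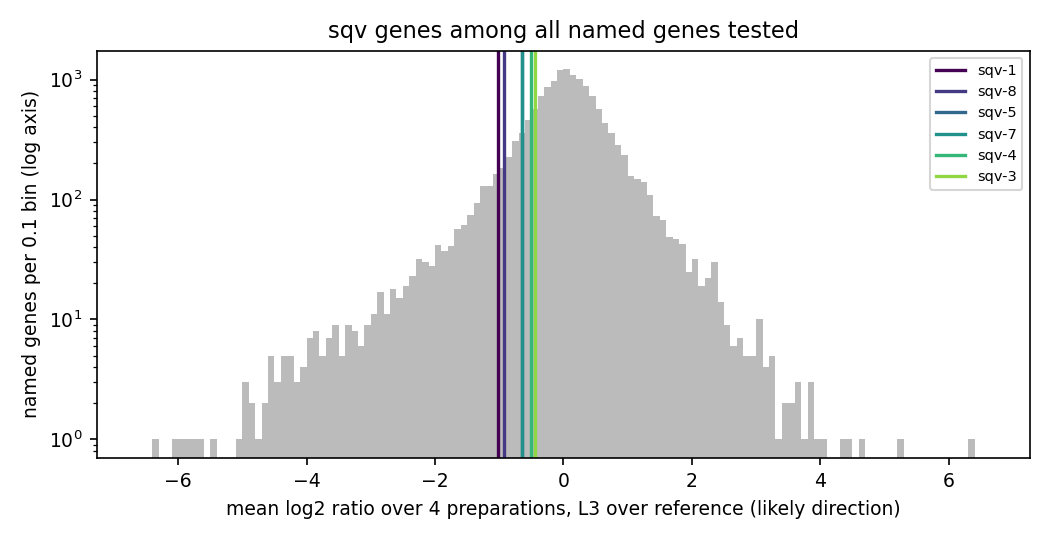
Number of named genes (vertical axis, log scale) by mean log2 ratio over the 4 L3 preparations (horizontal axis, likely L3 over reference), with a vertical line at the mean of each sqv gene. The 6 lines fall between -1.03 and -0.45, in the lower flank of the main peak and far from the extremes near -6.32 and 6.38.

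The order of the members changed between arrays. sqv-1 lay below sqv-8 on 4 of 4 arrays, by 0.11 ± 0.13 (SD, n = 4), which is less than the spread of that difference. sqv-5 and sqv-7 had the most alike values of the 15 pairs, with a root mean square difference of 0.11 over the 4 arrays. Next came sqv-1 and sqv-8 at 0.15. sqv-1 was below sqv-7 and sqv-3 on 4 of 4 arrays, by 0.38 ± 0.25 and 0.58 ± 0.22. Every pair that included sqv-4 differed by 0.90 or more. These differences between members were not tested.

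The arrays differed in how far ratios spread, which moved with the size of the members' values. Over all probes, the deposited values had a median absolute deviation of 0.38, 0.58, 0.39 and 0.28 on arrays 1 to 4. The median of the 6 members was -0.67, -0.94, -0.73 and -0.28 on the same arrays, so the array with the narrowest ratios also had members nearest to 0. With arrays scaled to a common spread, the same 4 members were called lower, and sqv-3 remained uncalled (mean -0.43, limma adjusted p = 0.0740). The array titles end in digits that read as dates, though no label says that they are. Read this way they carry 2 months, with preparations 1 and 2 in 1 and preparations 3 and 4 in the other. In preparations 1 and 2 alone 0 of 6 members passed in limma, with means from -1.30 to -0.53. In preparations 3 and 4 alone only sqv-1 passed (mean -1.14, limma adjusted p = 0.0395). These fits of 2 arrays each also called fewer genes in the whole table, 855 of 19473 and 968 of 19669 lower. With all 4 arrays, 5 of the 6 members had an unadjusted limma p under 0.05, beside 7001 of 19928 genes and probes.

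**Figure D3:**
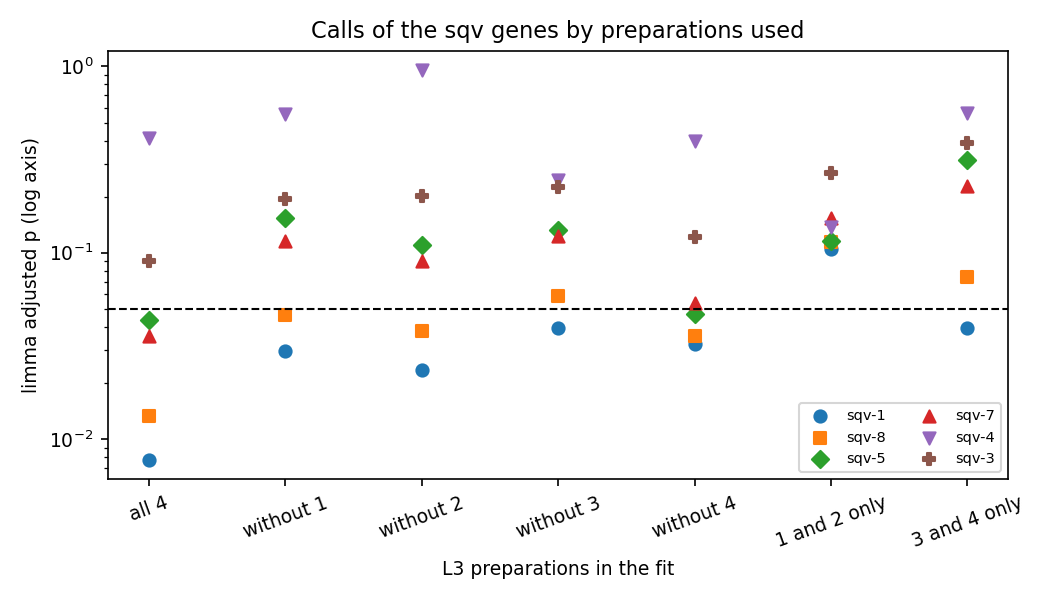
Limma adjusted p (vertical axis, log scale) of each sqv gene by the L3 preparations in the fit (horizontal axis), with a dashed line at 0.05. With all 4 preparations 4 genes lie under the line. sqv-1 stays under it with any 1 left out, and sqv-7 lies above it each time.

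The rest of the pathway was split. Of 52 other listed genes of glycosaminoglycan chains, sulfation, sugar supply and core proteins 38 were tested, of which 5 (13.2%) were lower, 5 (13.2%) higher and 28 did not pass, with a median of 0.14. These shares lie near those of the whole table. Neither listed chondroitin partner of sqv-5 passed, also at an unadjusted p under 0.05. mig-22, which encodes the factor that works with SQV-5 in polymerising chondroitin, lay at -0.04, 0.09, 0.17 and 0.08 in preparations 1 to 4, at or near 0 on each, where sqv-5 was between -0.87 and -0.22. Its mean was 0.07 ± 0.09 (SD, n = 4, limma adjusted p = 0.734), and its difference from sqv-5 was not tested. chst-1, a chondroitin sulfotransferase gene, lay at 0.42 ± 0.34 (adjusted p = 0.152).

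Heparan sulfate is the other chain built on the same linker. Of 9 tested genes of its synthesis and editing 1 (11.1%) was lower and 0 higher, close to the 10.8% of the whole table called lower. The list median of 0.04 is the value of 1 uncalled gene, whose 2 probes parted, with means of -0.38 and 0.47. The gene called was sul-2 at -1.16 ± 0.57 (SD, n = 4, limma adjusted p = 0.0207), a member of the sulfatase family that was listed by family and not as a known heparan-editing enzyme. Leaving out 1 preparation moved its adjusted p between 0.0217 and 0.0818. The backbone polymerase genes rib-1 and rib-2 lay at -0.23 ± 0.11 and 0.16 ± 0.34 (adjusted p = 0.291 and 0.566). hst-1, whose enzyme removes acetyl groups and adds sulfate to the chain, had log2 ratios of -1.14, -1.36, -0.50 and -0.19. It was below 0 on all 4 arrays, yet its mean of -0.80 ± 0.54 narrowly did not pass (limma adjusted p = 0.0574). It passed with quantile normalization, with equal spread on every array and with the month as a block (limma adjusted p = 0.0371, 0.0402 and 0.0479). The block had a negative correlation, which makes its test more lenient. The 2-O-sulfotransferase gene hst-2 lay at 0.20 ± 0.49 (adjusted p = 0.540) and the 6-O-endosulfatase gene sul-1 at 0.43 ± 0.62 (adjusted p = 0.270).

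Of 14 tested genes that supply sulfate donor and nucleotide sugars to the Golgi, 2 were higher, 0 lower and 12 did not pass, with a median of 0.19. The 14.3% higher stands beside 8.34% in the whole table, and 1 gene was higher with any 1 preparation left out. nstp-2, a gene of the nucleotide sugar transporter family to which sqv-7 also belongs, had log2 ratios of 2.13, 2.03, 1.23 and 1.50 in preparations 1 to 4, all high. Its mean was 1.72 ± 0.43 (SD, n = 4, limma adjusted p = 0.00323), so 2 related transporter genes, nstp-2 and sqv-7, were called in opposite directions. nstp-6 was also higher, at 0.69 ± 0.31 (adjusted p = 0.0378), a call lost with any 1 preparation left out (adjusted p from 0.0579 to 0.126). nstp-1 lay at -0.48 ± 0.26 (adjusted p = 0.0865), close to sqv-3, and srf-3, which encodes a transporter of UDP-galactose and UDP-N-acetylglucosamine, at 0.42 ± 0.37 (adjusted p = 0.158). The sulfate donor genes pps-1, pst-1 and pst-2 lay at 0.23 ± 0.76, 0.23 ± 0.54 and 0.48 ± 0.19 and did not pass (adjusted p = 0.610, 0.504 and 0.0728).

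Core proteins are the proteins to which the chains are attached. Of 6 tested genes named as chondroitin proteoglycan cores 4 were lower and 0 higher, and of 7 tested heparan sulfate proteoglycan cores 3 were higher and 0 lower, beside 10.8% lower and 8.34% higher in the whole table. The difference between these lists was not tested, and both hold members on the other side of 0. The eggshell proteoglycan gene cpg-1 had log2 ratios of -3.72, -4.30, -4.16 and -3.63, every one further below 0 than any value of a sqv gene. Its mean was -3.95 ± 0.32, and cpg-2 and cpg-3 lay at -4.72 ± 0.27 and -4.58 ± 0.30 (SD, n = 4; limma adjusted p = 0.000271, 0.000247 and 0.000247). cpg-4 was lower by an amount like that of sqv-8, at -0.87 ± 0.32 (adjusted p = 0.0195), but its 2 probes had means of -0.37 and -1.37, and the first did not pass on its own (adjusted p = 0.235). The adjusted p of cpg-4 was 0.0828, 0.0529 and 0.0777 with preparation 1, 2 or 3 left out. cpg-20 lay at -0.66 ± 0.54 and cpg-22 at 0.40 ± 0.41 (adjusted p = 0.0938 and 0.194).

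On the heparan side, unc-52, the perlecan gene of the basement membrane under muscle, was higher, with log2 ratios of 1.61, 2.90, 1.55 and 1.69 and a mean of 1.94 ± 0.65 (SD, n = 4, limma adjusted p = 0.00509). The glypican genes gpn-1 and lon-2, whose products sit on the cell surface, were higher too, at 1.06 ± 0.28 and 0.74 ± 0.38 (adjusted p = 0.00855 and 0.0408). The call of lon-2 was lost with any 1 preparation left out (adjusted p from 0.0721 to 0.124). Not called were the syndecan gene sdn-1 at -0.30 ± 0.30 (adjusted p = 0.252), the agrin gene agr-1 at -0.70 ± 0.40 (0.0516, but 0.0405 to 0.0479 in 5 other settings), the testican gene test-1 at 0.74 ± 0.47 (0.0566) and the collagen XVIII gene cle-1 at 0.16 ± 0.40 (0.587).

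**Figure D4:**
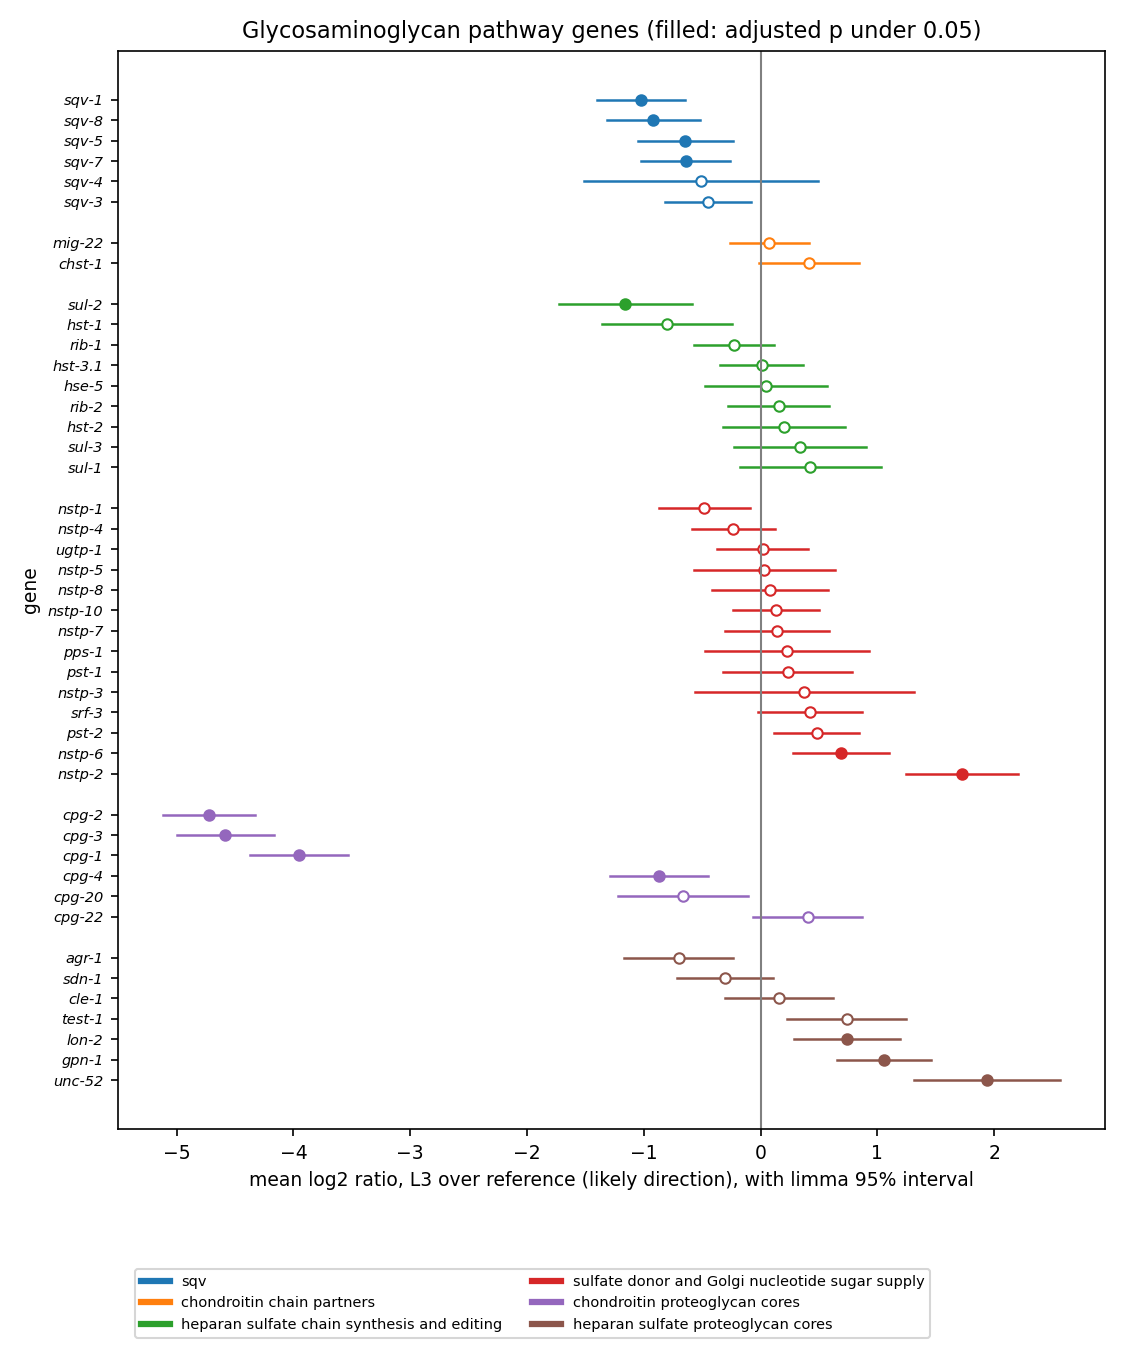
Mean log2 ratio (horizontal axis, likely L3 over reference) with its limma 95% interval for the sqv genes and 38 other tested genes of the pathway (vertical axis, 1 row per gene, coloured by list). Filled points passed the threshold: 4 sqv genes lie to the left of 0, cpg-1, cpg-2 and cpg-3 lie near -4 to -5, and nstp-2, unc-52 and gpn-1 lie above 1.

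The labelled stage was set against genes of oocytes, embryos and adults, since the sqv genes act in the embryo as well as the larva. Of these, 10 of 11 listed were tested and all 10 were lower in L3, beside 10.8% of the whole table. The list was chosen with earlier results of these data known. Its median was -4.62, and the medians by preparation were -4.81, -4.76, -4.75 and -4.12. The lowest mean of this list was -6.32 and the highest was -1.42, in mex-3 (limma adjusted p = 0.0185; 0.0211 to 0.0636 with 1 preparation left out). In this list rme-2, which encodes the oocyte's receptor for yolk, lay at -3.68 ± 0.57 and the maternal RNA-binding protein gene pos-1 at -4.96 ± 0.46 (SD, n = 4, limma adjusted p = 0.000597 and 0.000248). The sqv genes lay on the same side with a median of -0.64, and the part of oocyte and embryo RNA in their ratios was not tested. Of 9 tested genes of vulval differentiation 0 were lower and 0 higher in limma, beside 10.8% and 8.34% of the whole table. At an unadjusted limma p under 0.05, 2 were lower and 1 higher, beside 3637 and 3364 of all 19928 genes and probes. The 9 vulval genes had a median of 0.09. Among them lin-29, a zinc finger gene of larval timing, lay at 0.70 ± 0.42, egl-26 at -0.71 ± 0.48 and lin-11 at 0.29 ± 0.27 (adjusted p = 0.0547, 0.0633 and 0.258).

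Over the 4 arrays, the named genes most like sqv-1 outside the lists were sought among 14485 genes by the root mean square difference. The 5 nearest were hmg-5 (0.06), snt-4 (0.07), paqr-1 (0.08), rsl-24D1 (0.10) and K07A1.1 (0.10). Their means were -0.99, -1.07, -1.01, -0.93 and -1.07 against -1.03 for sqv-1. The likeness over 4 arrays is a description with no test.

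The nearest protein-coding genes on either side of each member in RefSeq WBcel235, a choice made after the members' values were seen, were also examined. Of 12 such neighbours 10 were measured, and 2 were lower and 1 higher, beside 10.8% and 8.34% of the whole table. These counts are small and were not tested against those shares. Beside sqv-8, ZK1307.9 had log2 ratios of -1.01, -1.40, -1.66 and -1.004, lowest in preparation 3 as sqv-8 was, with a mean of -1.27 ± 0.32 (SD, n = 4, limma adjusted p = 0.00566). Beside sqv-1, D2096.5 lay at -0.93 ± 0.59 (adjusted p = 0.0442; 0.122, 0.141 and 0.0877 with preparation 2, 3 or 4 left out). The neighbours of sqv-3 parted, with usp-46 at -0.41 ± 0.13 (adjusted p = 0.0984) and the proton pump subunit gene vha-1 higher at 0.58 ± 0.20 (adjusted p = 0.0425; 0.0873 to 0.151 with 1 preparation left out). mekk-3 beside sqv-5 and fzr-1 beside sqv-8 lay at -0.40 ± 0.10 and -0.38 ± 0.25 (adjusted p = 0.10 and 0.153). The other 4, beside sqv-4 and sqv-7, lay between -0.17 and 0.30 and were not called. The table gives no strand for these genes, so shared transcription was not examined.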

How the data were processed

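The deposited values are log2 ratios, 1 per probe and array, as made by the authors. Background correction, normalization, scanner and probe build were not stated in the labels or headers used, so the scale and the centring method stay unknown, and the direction is likely rather than labelled. Raising 2 to each value gave multiples of 0.001 (within 0.02 of a step) for at least 99.957% of values, against at most 5.421% of inverse ratios. Column medians were 0.02, 0.00, -0.03 and -0.01, and 21058 to 21472 probes had a value on an array. Array pairs correlated at 0.620 to 0.723 over probes. The number of arrays limits the precision, and signal over background is unknown.

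Of 21632 probes 16450 had 1 gene symbol, 247 several and 4935 none here. Names were updated or checked by Entrez number against RefSeq WBcel235 for 16360 probes. Probes of a gene were averaged, array medians were set to 0, and genes with a value on at least 3 arrays were tested in limma 3.58.1 (R 4.3.3; lmFit, then eBayes, two-sided test of the intercept) and adjusted by Benjamini-Hochberg. In all 3815 of 19928 (19.1%) passed the threshold of 0.05, and 7001 had an unadjusted p under 0.05. The script was tested on simulated data. The members, gene lists and tests were chosen with earlier results of these data known. Every sqv gene was reported; members of the other lists were named from the measured ones, each list was counted whole, and the 5 genes nearest sqv-1 over the arrays were named. The alternatives were other scalings, missing-value filters, single probes, robust eBayes, the month as read from the array titles and leaving out each preparation.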

Additional observations from a re-analysis of the deposited data

Results flagged for a closer look

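The sets of 4 values were those of genes named in the text above, of vit-2, col-19 and perm-2 from the oocyte, embryo and adult list, and of list medians. Of these 64 sets, 5 held 1 array far from the other 3, by Dixon's ratio of gap to range at its 95% critical value. Chance flags about 1 in 20 such sets. No sqv gene was among them. The value was 2.90 for unc-52 in preparation 2, 0.94 for hst-2 in preparation 2, 0.75 for cle-1 in preparation 1 and 1.32 for lin-29 in preparation 3. The median of the oocyte, embryo and adult list was -4.12 in preparation 4.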

How the results depend on the processing

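No paired analysis was possible because there is 1 group of samples. With values as deposited, arrays scaled to a common spread, quantile normalization, a value on at least 2 or on all 4 arrays, single probes, robust eBayes and the month as a block (correlation -0.117), the same 4 sqv genes were lower and 0 higher. The block correlation was negative, which makes that test more lenient, so the block is not a stricter check of any call. It called 2490 genes lower in the whole table, against 2153 in the main fit. Leaving out 1 preparation left 1 to 3 sqv genes lower, 0 higher. The means ranged from -1.12 to -0.94 (sqv-1), -0.53 to -0.37 (sqv-3), -0.87 to 0.025 (sqv-4, 0.025 without 2), -0.78 to -0.57 (sqv-5), -0.75 to -0.57 (sqv-7) and -0.997 to -0.81 (sqv-8). Over all genes 1003 to 1637 were then lower and 790 to 1085 higher, and of the other pathway genes 3 to 5 lower and 3 to 4 higher (median 0.081 to 0.13). These fits hold fewer arrays. In preparations 1 and 2 alone 0 sqv genes passed (sqv-1 -0.92, sqv-5 -0.83, sqv-7 -0.74, sqv-8 -0.87). There 855 genes were lower and 724 higher, and of the other pathway genes 4 were lower and 2 higher. In preparations 3 and 4 alone 1 passed, sqv-1 (sqv-5 -0.45, sqv-7 -0.55, sqv-8 -0.97, sqv-4 at 0.27), 968 genes were lower and 710 higher, and 3 pathway genes were lower and 2 higher (median 0.029). Among uncalled genes the sign turned for hst-2 (-0.067 in preparations 3 and 4; -0.044 to 0.31 with 1 left out), cle-1 (-0.056 in 3 and 4; -0.037 to 0.25 with 1 left out), pst-1 (-0.22 in 1 and 2) and pps-1 (-0.25 in 1 and 2; -0.14 to 0.39 with 1 left out). Some uncalled genes passed elsewhere. agr-1 did as deposited, with common spread, quantile normalization, all 4 arrays and the month block (limma adjusted p = 0.0476, 0.0446, 0.0405, 0.0479 and 0.0411). lin-29 did with common spread, quantile normalization and the block (0.0473, 0.0416 and 0.0408). test-1 did with quantile normalization, the block and without preparation 4 (0.0483, 0.0446 and 0.0350). egl-26 did with the block and without preparation 4 (0.0472 and 0.0418). The cause was not tested.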
